A study of Mus musculus with 9 samples.

Results

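The genes described here are 33 named members of the endoplasmic reticulum (ER) folding and quality control machinery, out of 19938 genes measured. Membership was set by gene name and by no cut on a measured value, but with earlier results of these data known, and all 33 were measured. They comprise 10 luminal chaperones and co-chaperones, 5 disulfide isomerases, 2 lectin chaperones, 9 genes of ER-associated degradation (ERAD), 4 translocon genes, and a set of 3 made up of the sensors Ern1 and Atf6 and the transcription factor Xbp1. Total RNA came from D2.OR cells, an established mouse mammary tumor line known for staying dormant after it spreads, grown in 3D culture. By their titles, 3 arrays hold cells from fibrillar collagen I, 3 hold cells from the non-fibrillar form of it and 3 hold cells from Matrigel, a basement membrane extract. The line is the same throughout, and the labels name no other agent. The series title names fibrillar collagen in connection with pregnancy and protection against breast cancer, and the question put to these arrays is whether expression differs with the form of collagen around the cells. The Matrigel group rests on its titles: under growth conditions those 3 arrays carry the same entry as the non-fibrillar ones, and the series design lists the collagen conditions alone. A batch that holds those 3 arrays alone and Matrigel cannot be told apart. Nothing in the labels says that replicates were separate cultures, so the p-values measure the spread between these arrays, which may be technical. In these bulk cultures fewer cells of a type and less RNA per cell cannot be told apart.

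Secreted and membrane proteins enter the ER through the Sec61 channel and fold there with the help of the Hsp70 chaperone BiP, the Hsp90 chaperone GRP94, lectin chaperones that hold glycoproteins, and disulfide isomerases that make and reshuffle disulfide bonds. Proteins that fail to fold are marked by mannose trimming, moved back across the membrane, ubiquitinated and degraded by the proteasome. When unfolded proteins build up, the sensors IRE1 (gene Ern1), ATF6 and PERK start the unfolded protein response, in which IRE1 splices the Xbp1 mRNA and the cleaved ATF6 and spliced XBP1 proteins raise transcription of chaperone and ERAD genes. Collagens and other matrix proteins are heavy clients of this machinery in cells that secrete them.

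ATF6 is known to act with NF-Y at the ER stress element, in which CCAAT is followed after 9 bases by CCACG. These sites are shown because several chaperone genes are known to carry the element. RefSeq promoter windows of assembly GRCm38.p6, from 250 bases before to 50 after an annotated start, were found for 28 of the 33 members and were searched on both strands. The element was found in 9 of the 28 members, against 0.137% of 27025 genes with a window. Each site is printed 5′ to 3′ on its own strand, with the fixed letters in capitals and the 9-base spacer in lower case.
Hspa5: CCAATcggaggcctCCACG
Hsp90b1, farther from the start: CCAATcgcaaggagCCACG
Hsp90b1, nearer the start: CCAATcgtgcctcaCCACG
Dnajc3: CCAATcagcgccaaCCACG
Creld2: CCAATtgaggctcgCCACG
Pdia6: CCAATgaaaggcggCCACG
Calr: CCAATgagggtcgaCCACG
Canx: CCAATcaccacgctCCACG
Syvn1: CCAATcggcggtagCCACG
Derl3: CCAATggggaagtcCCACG

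The 10 sites lay upstream of the start, with their centres between 35 bases (Syvn1) and 203 bases (Hsp90b1) before it. The Hspa5 site is at chr2:34772025-34772043, that of Pdia6 at chr12:17266491-17266509 and that of Creld2 at chr15:88819520-88819538. The type II form, ATTGG followed after 1 base by CCACG, was found in Dnajb11 and Herpud1, against 0.0444% of genes. An element with exactly 1 of its 10 fixed letters changed was found in 6 members (Derl2, Herpud1, Hsp90b1, Pdia3, Pdia4 and Sel1l), against 1.61% of genes. The letters CCACG alone, which are part of both elements, were in 24 of the 28 windows and in 35.5% of genes. The UPR element, TGACG directly followed by TGG, was in 0 of the 28 and in 0.714% of genes. A match of letters is a description of the window and not a binding site. The 250 bases before the start are printed for 3 members that carry the element and were higher in non-fibrillar collagen than in Matrigel, in the direction of the gene and with the fixed letters of the element in capitals. The Creld2 element lies on the opposite strand and therefore reads as its reverse complement.
Hspa5, chr2:34771840-34772089, plus strand: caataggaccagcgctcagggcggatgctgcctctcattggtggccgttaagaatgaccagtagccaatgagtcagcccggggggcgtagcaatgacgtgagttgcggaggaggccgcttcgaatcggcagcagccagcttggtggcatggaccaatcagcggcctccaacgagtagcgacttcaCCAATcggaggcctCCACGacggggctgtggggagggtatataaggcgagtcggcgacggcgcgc
Pdia6, chr12:17266339-17266588, plus strand: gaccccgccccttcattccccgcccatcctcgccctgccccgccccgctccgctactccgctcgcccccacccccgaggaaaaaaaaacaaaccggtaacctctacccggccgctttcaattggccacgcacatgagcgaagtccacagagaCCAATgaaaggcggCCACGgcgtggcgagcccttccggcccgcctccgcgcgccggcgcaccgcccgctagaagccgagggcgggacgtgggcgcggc
Creld2, chr15:88819396-88819645, plus strand: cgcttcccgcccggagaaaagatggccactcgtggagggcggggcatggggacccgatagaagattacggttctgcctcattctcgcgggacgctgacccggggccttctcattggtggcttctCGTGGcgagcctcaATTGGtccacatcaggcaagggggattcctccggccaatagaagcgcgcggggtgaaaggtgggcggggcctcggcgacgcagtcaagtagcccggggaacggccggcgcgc

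**Figure D1:**
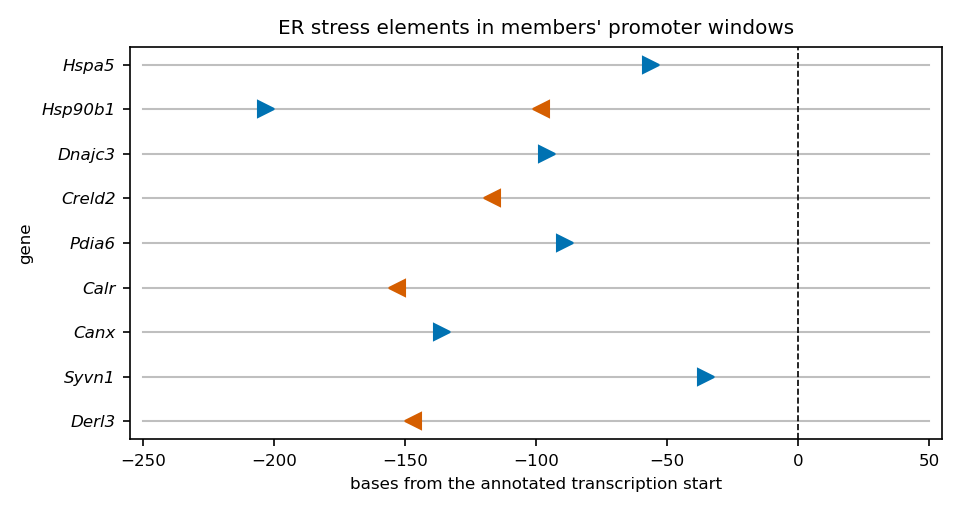
Positions of the ER stress element in the promoter windows of the 9 members that hold it, in bases from the annotated start (dashed line). Each grey line is one window from 250 bases before to 50 after the start; right-pointing blue marks are elements on the gene's own strand and left-pointing orange marks are elements on the opposite strand. Of the genes shown, Hsp90b1 has more than 1 element, and the Syvn1 mark lies nearest the start.

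Values are log2 expression, so a difference of 1 is a doubling. The array medians ran from 5.98 to 6.05, and Pearson's r over all probe sets, which are not independent replicates, was 0.994 to 0.996 within groups and 0.992 to 0.996 between groups. The epithelial keratins Krt8 and Krt18 had group means from 13.13 to 13.27 and from 12.62 to 12.90 over non-fibrillar collagen and Matrigel. Of 7 epithelial markers, Krt18, Epcam and Cldn7 were higher in non-fibrillar collagen than in Matrigel (limma adjusted p = 0.00151, 0.00582 and 0.034), and the mean level of the list was 8.50 to 8.53 in the non-fibrillar arrays against 8.37 to 8.41 in the Matrigel arrays. Over 6 fibroblast markers the mean level was 5.97 to 6.04 and 6.10 to 6.23 in the same groups and 6.06 to 6.15 in fibrillar collagen, with Pdgfra lower by 2.01-fold in non-fibrillar collagen than in Matrigel. In that comparison 3 of the 6 had the higher mean in non-fibrillar collagen and 3 the lower, with a median difference of -0.03. Pdgfra was also higher in fibrillar than in non-fibrillar collagen by 1.59-fold (lost without fibrillar replicate 2 or 3 or non-fibrillar replicate 1 or 2), and Krt18 was higher in fibrillar collagen than in Matrigel by 1.17-fold (lost without Matrigel replicate 2). The Cldn7 call was lost without any 1 non-fibrillar array or without Matrigel replicate 2 or 3. The adipocyte list of 5 ran from 5.33 to 5.34 in non-fibrillar collagen, 5.52 to 5.58 in Matrigel and 5.35 to 5.49 in fibrillar collagen. Its Fabp4 was lower than in Matrigel by 2.03-fold in non-fibrillar and 1.76-fold in fibrillar collagen, while Adipoq had means of 4.11, 4.06 and 4.09 in non-fibrillar collagen, Matrigel and fibrillar collagen. Against Matrigel, 2 of these 5 were higher and 3 lower in mean in non-fibrillar collagen (median difference -0.06). In fibrillar collagen 3 were higher and 2 lower (median difference 0.03). Of 6 macrophage markers 1 passed, Cd14, which was higher in non-fibrillar collagen than in fibrillar collagen by 1.29-fold and than in Matrigel by 1.21-fold. The collagen call of Cd14 was lost in all 6 refits without 1 array, and its Matrigel call without non-fibrillar replicate 2 or 3 or Matrigel replicate 1 or 2. The list's mean level was 5.22 to 5.26, 5.16 to 5.24 and 5.23 to 5.26 in those groups. Of 5 endothelial markers, with mean levels of 4.97 to 5.08 in non-fibrillar collagen and 5.05 to 5.11 in Matrigel, Kdr was lower in non-fibrillar collagen by 1.38-fold. Yet 3 of the 5 had the higher mean in non-fibrillar collagen, and the list's median difference was 0.04. Between the collagen forms 0 of them passed by limma (1 at unadjusted p under 0.05, and 1 with a replicate block). Of 4 plasma and B cell markers none passed (0 at unadjusted p under 0.05). Fabp4 had means of 5.30, 5.51 and 6.33 in non-fibrillar collagen, fibrillar collagen and Matrigel, and Kdr of 5.73 in non-fibrillar collagen and 6.20 in Matrigel. In non-fibrillar collagen both thus lay below the array medians, as did the mean levels of the macrophage, endothelial, adipocyte and plasma and B cell lists. Log2 values have no zero and detection calls were not used here, so whether such dim markers were expressed is not known. The part of these marker differences in the results on the ER genes was not tested.

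Most of the difference among the ER genes lay between non-fibrillar collagen and Matrigel. There, 12 of 33 members were higher in non-fibrillar collagen, against 6.75% of all genes, and 3 were lower, against 7.07%, by limma at an adjusted p of 0.05, with all genes in the adjustment. Those 12 were Hspa5, Hsp90b1, Dnajb11, Sdf2l1, Manf, Creld2, Pdia4, Pdia5, Pdia6, Derl2, Sec61b and Ssr2, and the 3 were Sel1l, Edem3 and Ern1. The arrays of these groups did not overlap for 22 members, or 66.7%, against 28.4% of all genes. Normalizing the columns again by quantiles moved the split to 8 higher and 4 lower. The main fit took its spread from all 9 arrays, while the collagen forms were compared on their own 6. With only the 6 arrays compared in the fit, 9 members were higher and 3 lower, and Hspa5, Dnajb11 and Pdia5 no longer passed. With all 9 arrays in the fit, the collagen comparison had 2 members higher and 5 lower. The median difference of the members was 0.12 on the log2 scale, against 6e-04 over all genes. Leaving out 1 array moved the count of higher members to 3 without non-fibrillar replicate 1, 5 without non-fibrillar replicate 2, 5 without Matrigel replicate 2, 4 without Matrigel replicate 3 and 8 without fibrillar replicate 2 or Matrigel replicate 1. The lower members numbered 3 or 4 in the same refits.

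Between the collagen forms 1 member, Sel1l, was higher in fibrillar collagen, against 2.71% of all genes, and 4 members, Sdf2l1, Creld2, Derl2 and Sec61b, were lower, against 3.69%. The arrays did not overlap for 12 members, or 36.4%, against 25.2% of genes. These counts rested on all 6 arrays. Without fibrillar replicate 1, 2 or 3 the lower members numbered 1, 0 and 0, without non-fibrillar replicate 1, 2 or 3 they numbered 0, 0 and 1, and Sel1l missed the threshold in each of the 6 refits. Between fibrillar collagen and Matrigel 0 members were higher by limma (6 at unadjusted p under 0.05), against 1.45% of genes. Dnajb9, Edem3 and Ern1 were lower, against 2.37% of genes. The arrays of that comparison did not overlap for 9 members, or 27.3%, against 20.4%. The count of 3 fell to 1 without fibrillar replicate 1, 2 or 3 or without Matrigel replicate 2.

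The members are brightly measured genes: 32 of the 33 had a mean of at least 7 over the arrays, and 8736 of all genes did. Among those 8736 genes, 13.4% were higher and 13.6% lower in non-fibrillar collagen than in Matrigel, and the arrays did not overlap for 50.8%. For the 32 members the shares were 37.5%, 9.38% and 68.8%. In the collagen comparison 7.66% of the 8736 were lower and 5.69% higher in fibrillar collagen, and 43.9% did not overlap, against 12.5%, 3.12% and 37.5% of the 32 members. For fibrillar collagen against Matrigel, 2.62% of the bright genes were higher, 4.4% lower and 32.4% not overlapping, against 0%, 9.38% and 28.1% of these members. The share of members that did not overlap was thus above that of bright genes in the non-fibrillar against Matrigel comparison and below it in the other two comparisons.

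**Figure D2:**
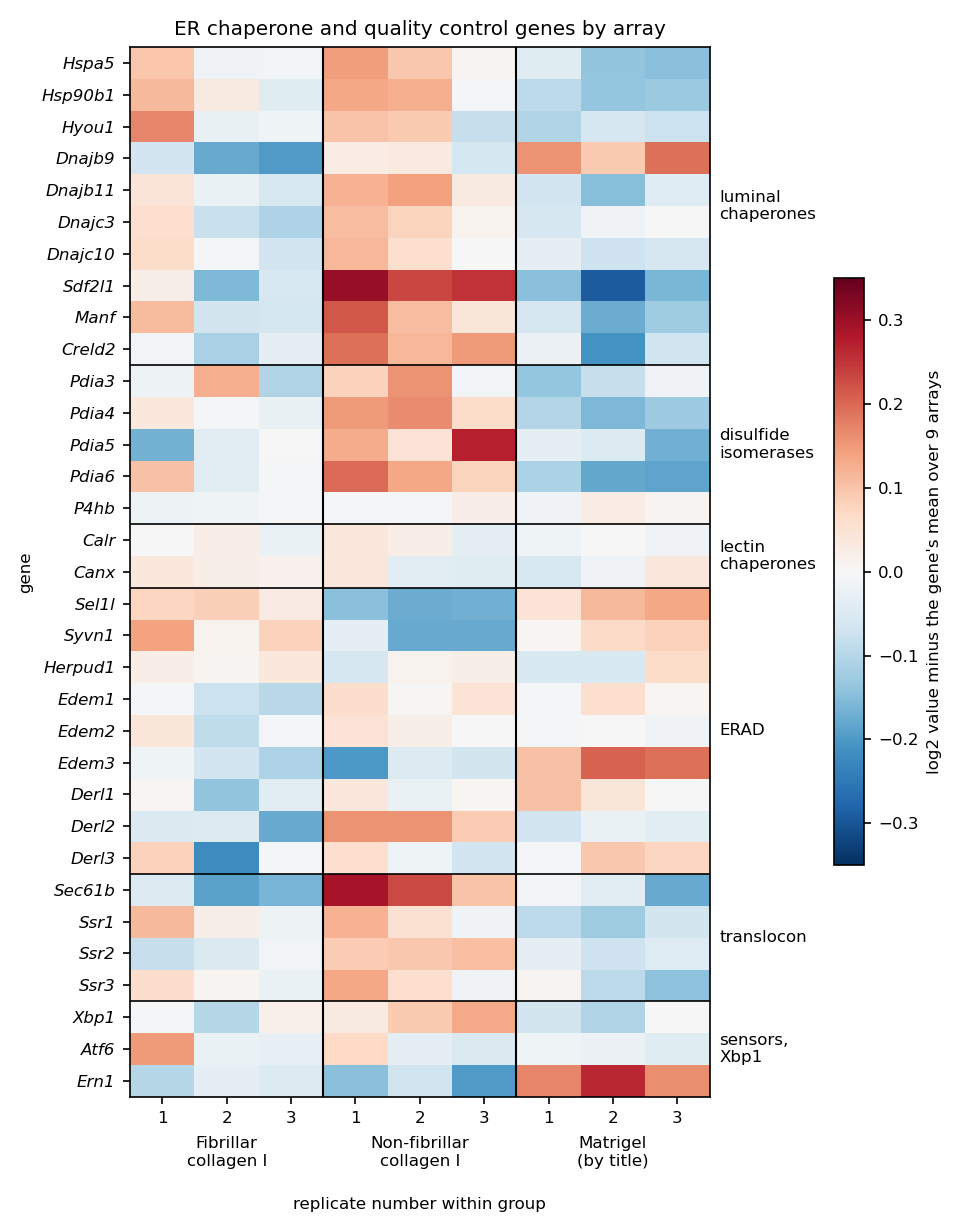
Log2 value of each member in each of the 9 arrays minus the gene's mean over all arrays (colour scale from blue, below the mean, to red, above it), with rows grouped by role and columns by culture. The luminal chaperones and disulfide isomerases are mostly red in non-fibrillar collagen and mostly blue in Matrigel, while Dnajb9, Edem3 and Ern1 are red in Matrigel, and Sel1l and Syvn1 are blue in the 3 non-fibrillar arrays.

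The group means of 16 members were ordered with non-fibrillar collagen highest, fibrillar collagen between and Matrigel lowest. That order held for 48.5% of members, for 17.9% of all genes and for 21.2% of the bright genes. It was that of Hspa5, Hsp90b1, Dnajb11, Dnajc10, Sdf2l1, Manf, Creld2, Pdia3, Pdia4, Pdia5, Pdia6, Calr, Ssr1, Ssr2, Ssr3 and Xbp1. Matrigel had the highest mean and non-fibrillar collagen the lowest for Sel1l, Edem3 and Ern1. Of those 16, Sdf2l1 and Creld2 passed between the first and the second of the groups, and 0 passed between the second and Matrigel (6 at unadjusted p under 0.05).

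The luminal chaperones are the largest set, with 10 members. Of these, 6 were higher in non-fibrillar collagen than in Matrigel and 0 were lower (1 at unadjusted p under 0.05, Dnajb9). The counts of higher members in this and the other sets stand against 6.75% of all genes and 13.4% of bright genes. Hspa5, which encodes BiP, read 12.59, 12.54 and 12.46 in non-fibrillar collagen, 12.55, 12.44 and 12.44 in fibrillar collagen and 12.41, 12.31 and 12.30 in Matrigel. All 6 collagen arrays lay above the 3 Matrigel arrays, and the collagen groups overlapped. The difference between non-fibrillar collagen and Matrigel was 0.19 ± 0.053 (SE, n = 3 arrays per group; 1.14-fold, adjusted p = 0.0385), and that between fibrillar collagen and Matrigel, 0.13 ± 0.053, did not pass (adjusted p = 0.214). Hsp90b1, which encodes GRP94, read 12.27, 12.26 and 12.13 in non-fibrillar collagen, 12.25, 12.16 and 12.09 in fibrillar collagen and 12.04, 12.00 and 12.01 in Matrigel. Here too the collagen arrays lay above Matrigel, by 0.20 ± 0.054 for non-fibrillar collagen (1.15-fold, adjusted p = 0.0333) and by 0.15 ± 0.054 for fibrillar collagen (adjusted p = 0.171). In the collagen comparison Hspa5 and Hsp90b1 differed by -0.06 and -0.05, with 95% intervals from -0.18 to 0.07 and from -0.19 to 0.09.

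Sdf2l1, a partner of the co-chaperone ERdj3, had the largest difference of any member. It read 9.98, 9.91 and 9.93 in non-fibrillar collagen, 9.70, 9.52 and 9.62 in fibrillar collagen and 9.53, 9.38 and 9.52 in Matrigel. The non-fibrillar arrays stood above the other 6, while fibrillar collagen and Matrigel overlapped. Sdf2l1 was lower in fibrillar than in the non-fibrillar form by 1.26-fold (difference -0.33 ± 0.053, adjusted p = 0.0223) and higher in non-fibrillar collagen than in Matrigel by 1.38-fold (0.46 ± 0.058, adjusted p = 0.00074). The second of these calls held in each of the 19 alternatives computed, with adjusted p from 0.000152 to 0.00492, and the first missed the threshold without any one of 5 of the 6 arrays, all but fibrillar replicate 1 (adjusted p up to 0.0893).

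Creld2, an ER stress-inducible protein of the lumen, followed the same order. Its values were 10.60, 10.53 and 10.56 in non-fibrillar collagen, 10.40, 10.30 and 10.37 in fibrillar collagen and 10.39, 10.20 and 10.34 in Matrigel. The non-fibrillar arrays were again above all others and the remaining groups overlapped. The difference was -0.21 ± 0.043 for fibrillar against non-fibrillar collagen (1.15-fold, adjusted p = 0.0433) and 0.25 ± 0.055 for non-fibrillar collagen against Matrigel (1.19-fold, adjusted p = 0.0141). The collagen call was lost in all 6 refits without 1 array and after quantile normalization, with adjusted p up to 0.117, and the Matrigel call was lost without non-fibrillar replicate 1 (adjusted p = 0.0529).

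Dnajb11 encodes ERdj3, which binds nascent clients beside BiP, and Manf encodes a secreted and luminal regulator of BiP. Dnajb11 read 9.98, 10.005 and 9.89 in non-fibrillar collagen, 9.91, 9.84 and 9.81 in fibrillar collagen and 9.80, 9.71 and 9.82 in Matrigel. Manf read 9.56, 9.45 and 9.38, then 9.45, 9.28 and 9.28, then 9.28, 9.17 and 9.22 in the same order of groups. For each gene the non-fibrillar arrays lay above the Matrigel arrays and the fibrillar arrays overlapped both, with differences from Matrigel of 0.19 ± 0.049 for Dnajb11 (1.14-fold, adjusted p = 0.0338) and 0.24 ± 0.064 for Manf (1.18-fold, adjusted p = 0.0327).

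Dnajb9, which encodes ERdj4, a co-chaperone that aids ERAD and restrains IRE1, was the luminal member with a lower mean in non-fibrillar collagen than in Matrigel. Its values were 10.02, 9.91 and 9.89 in fibrillar collagen, 10.12, 10.12 and 10.03 in non-fibrillar collagen and 10.25, 10.18 and 10.28 in Matrigel. The 3 groups did not overlap, with fibrillar collagen lowest and Matrigel highest. Dnajb9 was lower in fibrillar collagen than in Matrigel by 1.23-fold (-0.30 ± 0.051, adjusted p = 0.013), a call lost without fibrillar replicate 2 (adjusted p = 0.0524). Its differences between the collagen forms, -0.15 ± 0.050 (adjusted p = 0.151), and between non-fibrillar collagen and Matrigel, -0.15 ± 0.051 (adjusted p = 0.0892), did not pass. The latter did pass after quantile normalization of the columns and among genes with a mean of at least 6 or 7.

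The 3 other luminal members were not called in any comparison. Hyou1, a nucleotide exchange factor of BiP, Dnajc3, a co-chaperone that also inhibits PERK, and Dnajc10, a co-chaperone with reductase activity, differed between non-fibrillar collagen and Matrigel by 0.12, 0.09 and 0.11, with adjusted p of 0.321, 0.335 and 0.169. Their 95% intervals reached up to 0.26, 0.21 and 0.22.

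Among the 5 disulfide isomerases, 3 were higher in non-fibrillar collagen than in Matrigel and 0 were lower (0 at unadjusted p under 0.05). Pdia6, a BiP-associated isomerase, read 11.08, 11.02 and 10.97 in non-fibrillar collagen, 10.99, 10.85 and 10.88 in fibrillar collagen and 10.78, 10.71 and 10.70 in Matrigel. Every collagen array lay above every Matrigel array. Non-fibrillar collagen exceeded Matrigel by 0.30 ± 0.051 (1.23-fold, adjusted p = 0.00417), a call that held in all 19 alternatives. Fibrillar collagen differed from Matrigel by 0.18 ± 0.051 (1.13-fold), which did not pass (adjusted p = 0.0908). It passed with the replicate number as a block, among genes with a mean of at least 6 or 7, and with a trended robust prior.

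Pdia4, also called ERp72, read 11.33, 11.35 and 11.25 in non-fibrillar collagen, 11.22, 11.18 and 11.16 in fibrillar collagen and 11.08, 11.03 and 11.06 in Matrigel. The 3 groups did not overlap, and non-fibrillar collagen exceeded Matrigel by 0.26 ± 0.042 (1.19-fold, adjusted p = 0.00339). This call held without any 1 array. It was lost when the probe sets of the gene were averaged (difference 0.05, adjusted p = 0.529), since its other probe set, with values from 4.54 to 4.85, differed by -0.15 between the same groups. Pdia5 read 8.60, 8.52 and 8.74 in non-fibrillar collagen, 8.31, 8.43 and 8.47 in fibrillar collagen and 8.44, 8.42 and 8.30 in Matrigel. Its non-fibrillar arrays lay above the other 6, with a difference from Matrigel of 0.23 ± 0.068 (1.18-fold, adjusted p = 0.0496). That value was the closest to the threshold of all members called and was lost in 7 of the 9 refits without 1 array, all but those without fibrillar replicate 1 and non-fibrillar replicate 2, and with a replicate block (adjusted p = 0.0649). The call was also lost with only the 6 arrays compared in the fit (adjusted p = 0.0779).

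P4hb encodes protein disulfide isomerase, which is also the beta subunit of collagen prolyl 4-hydroxylase. Its group means were 11.87 ± 0.0079 (SD, n = 3) in fibrillar collagen, 11.88 ± 0.017 in non-fibrillar collagen and 11.89 ± 0.019 in Matrigel. The 95% intervals of its differences ran from -0.09 to 0.06 between the collagen forms and from -0.08 to 0.07 between non-fibrillar collagen and Matrigel. Pdia3, also called ERp57, which works with the lectin chaperones, differed by 0.15 ± 0.067 between non-fibrillar collagen and Matrigel, without overlap but with adjusted p = 0.191.

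The lectin chaperones Calr (calreticulin) and Canx (calnexin), which retain glycoproteins until they fold, were not called in any comparison (0 of 2 at unadjusted p under 0.05 in each). Calr had means of 12.52, 12.53 and 12.51 and Canx of 12.42, 12.38 and 12.39 in fibrillar culture, non-fibrillar culture and Matrigel. Between non-fibrillar collagen and Matrigel the 95% interval was -0.07 to 0.10 for Calr and -0.10 to 0.09 for Canx. Their promoter windows hold the ER stress element, as do those of Hspa5 and Pdia6. Of the 9 members with the element, 4 were higher in non-fibrillar collagen than in Matrigel (Hspa5, Hsp90b1, Creld2 and Pdia6), as were 6 of the 19 members whose window lacks it and 2 of the 5 without a window.

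**Figure D3:**
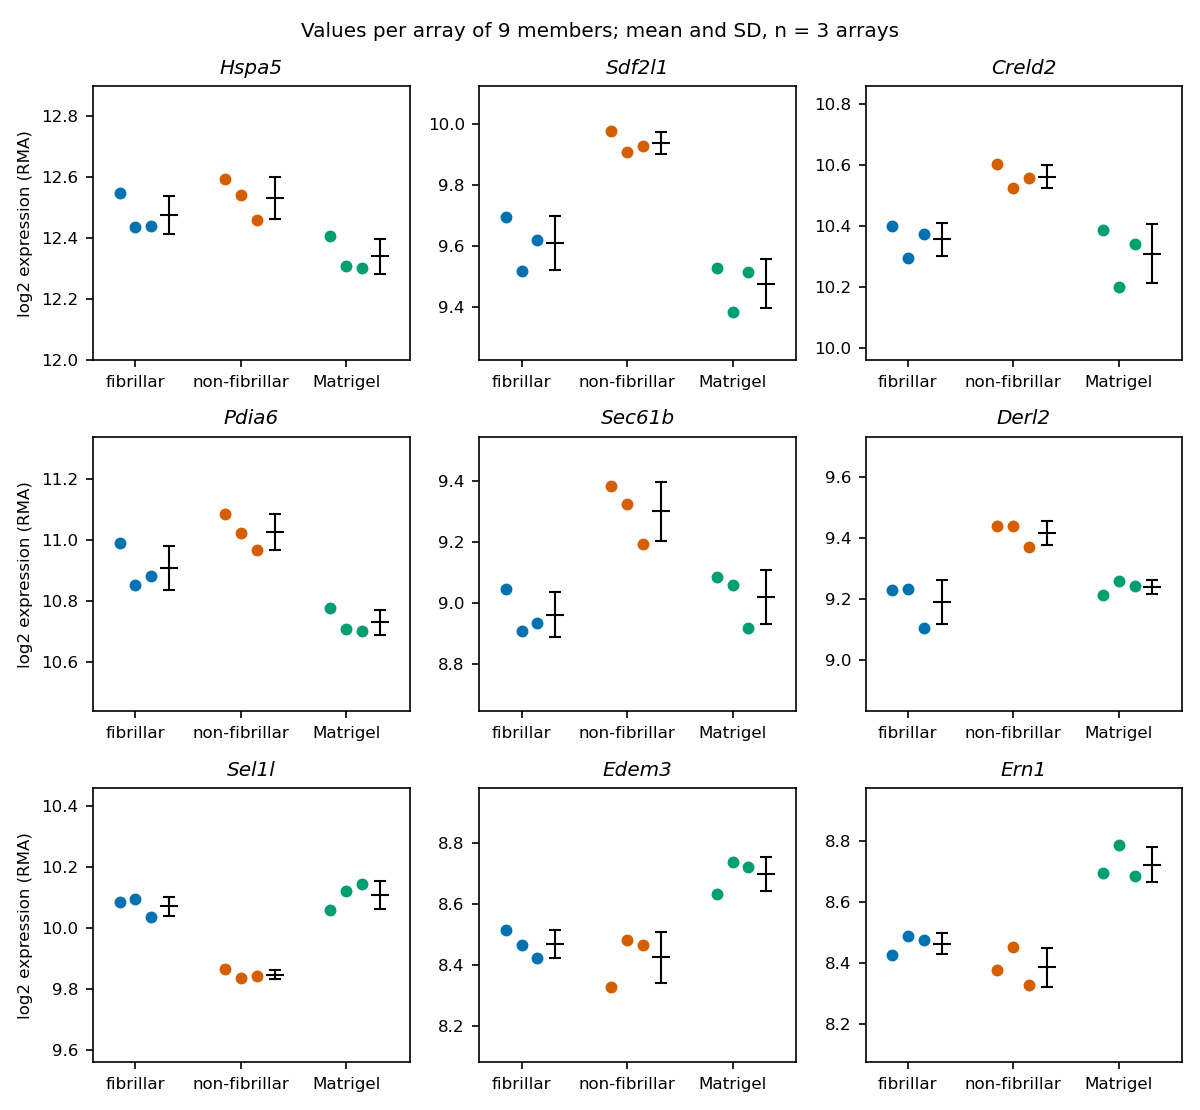
Log2 values of 9 members in each array, with the group mean and SD (n = 3 arrays) in black beside the points; each panel spans the same 0.9 log2 units. Sdf2l1, Creld2, Sec61b and Derl2 are highest in the non-fibrillar arrays, Sel1l is lowest there, and Edem3 and Ern1 are highest in the Matrigel arrays.

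Of the 9 ERAD genes, 1 was higher and 2 were lower in non-fibrillar collagen than in Matrigel, and 4 had the higher mean and 5 the lower. Of all genes 6.75% were higher and 7.07% lower, and of bright genes 13.4% and 13.6%, so calls in both directions are not particular to this set. Sel1l encodes the adaptor that holds the ubiquitin ligase Hrd1, encoded by Syvn1, in the retrotranslocation complex. Sel1l read 10.08, 10.09 and 10.04 in fibrillar collagen, 9.86, 9.84 and 9.84 in non-fibrillar collagen and 10.06, 10.12 and 10.15 in Matrigel. The non-fibrillar arrays lay below the other 6, which overlapped each other. Sel1l was higher in fibrillar than in non-fibrillar collagen by 1.17-fold (0.22 ± 0.034, adjusted p = 0.0193, up to 0.0771 without 1 array) and lower in non-fibrillar collagen than in Matrigel by 1.20-fold (-0.26 ± 0.040, adjusted p = 0.00223). The latter held in all 19 alternatives.

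Syvn1 had its lowest values in the same arrays, 8.76, 8.62 and 8.62, against 8.94, 8.81 and 8.88 in fibrillar collagen and 8.81, 8.87 and 8.88 in Matrigel. The non-fibrillar arrays did not overlap the others, but neither difference passed: 0.21 ± 0.056 for fibrillar against non-fibrillar collagen (adjusted p = 0.0862) and -0.18 ± 0.053 for non-fibrillar collagen against Matrigel (adjusted p = 0.0507). The collagen difference of Syvn1 passed with all 9 arrays in the fit, and both passed among genes with a mean of at least 6 or 7. That from Matrigel also passed with a trended robust prior and with array weights.

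Edem1, Edem2 and Edem3 encode proteins of the mannosidase family that mark misfolded glycoproteins for degradation. Edem3 read 8.52, 8.46 and 8.42 in fibrillar collagen, 8.33, 8.48 and 8.47 in non-fibrillar collagen and 8.63, 8.74 and 8.72 in Matrigel. All 6 collagen arrays lay below the Matrigel arrays. The difference was -0.27 ± 0.053 for non-fibrillar collagen (1.21-fold, adjusted p = 0.00822, held in all 19 alternatives) and -0.23 ± 0.053 for fibrillar collagen (1.17-fold, adjusted p = 0.0466). The fibrillar call was lost in 13 of 19 alternatives, 8 of them refits without 1 array (all but non-fibrillar replicate 1), with a replicate block (adjusted p = 0.0501) and after quantile normalization or centring. Edem1 and Edem2 did not pass in any comparison, with differences between -0.10 and 0.03.

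Derlins form part of the retrotranslocation channel. Derl2 read 9.44, 9.44 and 9.37 in non-fibrillar collagen, 9.23, 9.23 and 9.11 in fibrillar collagen and 9.21, 9.26 and 9.24 in Matrigel. The non-fibrillar arrays lay above the other 6. Derl2 was lower in fibrillar than in the non-fibrillar form by 1.17-fold (-0.23 ± 0.048, adjusted p = 0.0456, lost in all 6 refits without 1 array) and higher in non-fibrillar collagen than in Matrigel by 1.13-fold (0.18 ± 0.046, adjusted p = 0.0311). Derl1 and Derl3 did not pass in any comparison. Derl3 was the member with a mean below 7, with group means from 6.16 to 6.26. Herpud1, a stress-inducible organizer of the Hrd1 complex, differed by 0.03, 0.04 and 0.01 in the collagen, fibrillar against Matrigel and non-fibrillar against Matrigel comparisons, with no interval beyond 0.14 or below -0.10.

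Of the 4 translocon genes, 2 were higher in non-fibrillar collagen than in Matrigel and 0 were lower (0 at unadjusted p under 0.05). Sec61b, the beta subunit of the Sec61 channel, read 9.38, 9.33 and 9.20 in non-fibrillar collagen, 9.05, 8.91 and 8.93 in fibrillar collagen and 9.09, 9.06 and 8.92 in Matrigel. Its non-fibrillar arrays lay above the other 6, which overlapped. It was lower in fibrillar than in the non-fibrillar form by 1.26-fold (-0.34 ± 0.063, adjusted p = 0.0316) and higher in non-fibrillar collagen than in Matrigel by 1.21-fold (0.28 ± 0.065, adjusted p = 0.0188). The collagen call was lost without any 1 array other than non-fibrillar replicate 3, and the Matrigel call without non-fibrillar replicate 1 or 2 or Matrigel replicate 3. Sec61b has 3 probe sets, and the other 2 differed by -0.30 and -0.33 between the collagen forms and by 0.25 and 0.27 between non-fibrillar collagen and Matrigel.

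Ssr1, Ssr2 and Ssr3 encode subunits of the translocon-associated protein complex. Ssr2 read 11.79, 11.80 and 11.81 in non-fibrillar collagen, 11.62, 11.65 and 11.69 in fibrillar collagen and 11.67, 11.63 and 11.66 in Matrigel. The non-fibrillar arrays lay above the other 6 and hardly differed among themselves (SD 0.0080). Ssr2 was higher in non-fibrillar collagen than in Matrigel by 1.11-fold (0.15 ± 0.037, adjusted p = 0.0286), and its difference between the collagen forms was -0.14 ± 0.035 (adjusted p = 0.0664). Ssr1 and Ssr3 differed from Matrigel in non-fibrillar collagen by 0.15 and 0.14, with adjusted p of 0.0866 and 0.149.

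Ern1, which encodes the sensor IRE1, had the most negative difference of all members between non-fibrillar collagen and Matrigel. It read 8.43, 8.49 and 8.48 in fibrillar collagen, 8.38, 8.45 and 8.33 in non-fibrillar collagen and 8.70, 8.79 and 8.69 in Matrigel. The 6 collagen arrays lay below the 3 Matrigel arrays and overlapped among themselves. Ern1 was lower than in Matrigel by 1.26-fold in non-fibrillar collagen (-0.34 ± 0.048, adjusted p = 0.00152, held in all 19 alternatives) and by 1.20-fold in fibrillar collagen (-0.26 ± 0.048, adjusted p = 0.0184). The fibrillar call was lost without fibrillar replicate 1 or 3 or Matrigel replicate 2, with adjusted p up to 0.0682. Xbp1 had means of 10.60, 10.71 and 10.57 in fibrillar culture, non-fibrillar culture and Matrigel, and the difference of 0.14 ± 0.050 between its non-fibrillar and Matrigel arrays did not pass (adjusted p = 0.0957). Splicing of the Xbp1 mRNA was not measured. Atf6 had means of 9.01, 8.98 and 8.96, with an interval from -0.10 to 0.15 for non-fibrillar collagen against Matrigel.

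**Figure D4:**
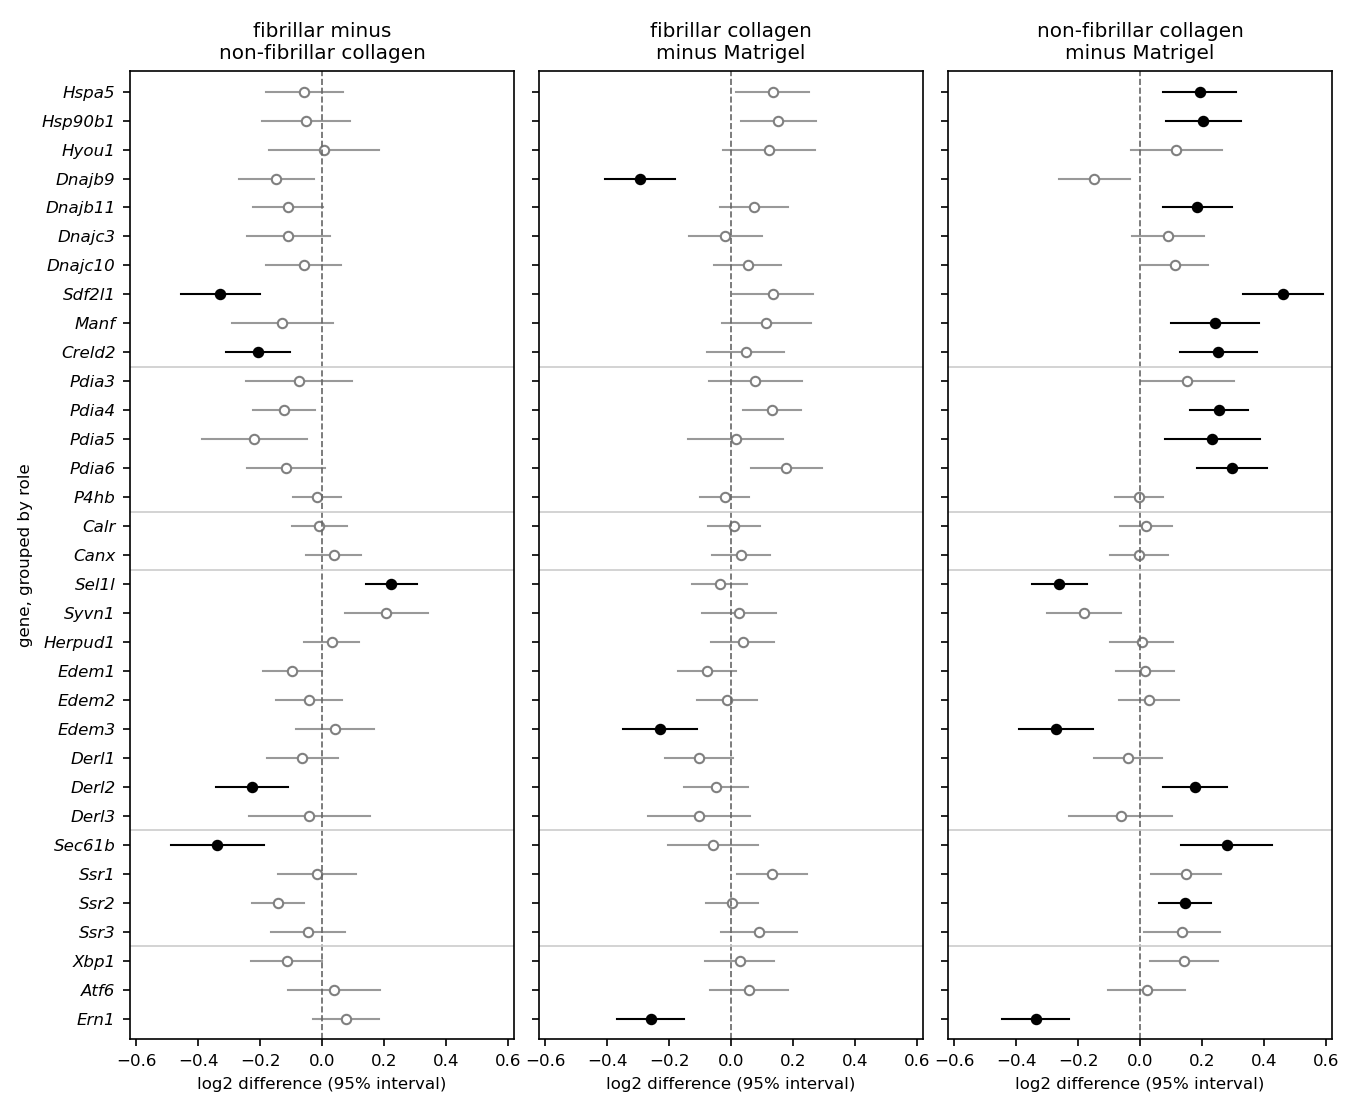
Log2 difference of each member in the 3 comparisons (points), with its 95% interval from limma (lines), and genes grouped by role. Filled black points passed an adjusted p of 0.05: 5 between the collagen forms, 3 between fibrillar collagen and Matrigel and 15 between the non-fibrillar form and Matrigel. Each pair of panels shares the 3 arrays of one group, so the panels are not independent.

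Several calls against Matrigel depended on single arrays, on scaling or on the arrays in the fit. Those of Hspa5, Hsp90b1 and Dnajb11 were each lost in 6 of the 9 refits without 1 array and after quantile normalization, with adjusted p up to 0.125, 0.111 and 0.122. Each of these was lost without fibrillar replicate 2, non-fibrillar replicate 1 or 2 or Matrigel replicate 2 or 3, Hspa5 also without fibrillar replicate 3, and Hsp90b1 and Dnajb11 also without Matrigel replicate 1. With only the 6 arrays compared in the fit, Hspa5 and Dnajb11 missed the threshold (limma adjusted p = 0.0598 and 0.0563), while Hsp90b1 passed (adjusted p = 0.0428). The calls of Manf, Derl2 and Ssr2 were lost without non-fibrillar replicate 1 or 2 or Matrigel replicate 2 or 3, Derl2 also without Matrigel replicate 1 and Ssr2 also without non-fibrillar replicate 3 and after quantile normalization. Their adjusted p reached 0.118, 0.0976 and 0.222.

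The small collagen differences of single members lay mostly on one side when arrays of the same replicate number were set against each other. In all 3 pairs 23 of the 33 members had the lower value in fibrillar collagen, or 69.7%, against 21.5% of all genes and 38.4% of the 8736 bright genes. Among the 10 luminal chaperones Hyou1 alone was not lower in every pair, with differences of 0.07, -0.12 and 0.06. Sdf2l1 differed by -0.28, -0.39 and -0.31 and Hspa5 by -0.05, -0.11 and -0.02. All 5 disulfide isomerases and all 4 translocon genes were lower in each pair, by as little as -0.01, -0.03 and -0.01 for Ssr1. Sec61b differed by -0.34, -0.42 and -0.26. Higher in fibrillar collagen in all 3 pairs were Sel1l, Syvn1, Atf6 and Ern1, or 12.1% of members, against 21.1% of all genes and 26.8% of the bright genes. Members share arrays, so a count over members is a description of these 6 arrays. No label says that the replicate numbers pair the arrays.

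**Figure D5:**
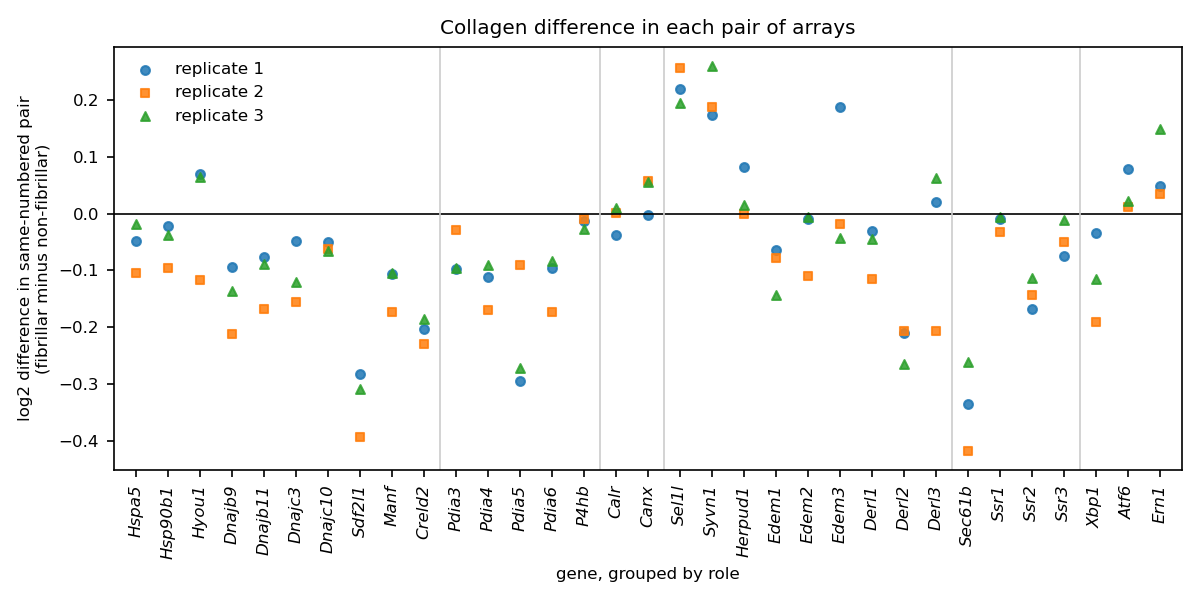
Difference between fibrillar and non-fibrillar collagen (log2) for each member in each same-numbered pair of arrays (circles, squares and triangles for replicates 1, 2 and 3), with genes grouped by role. Points lie below 0 in all 3 pairs for 23 members and above 0 in all 3 for Sel1l, Syvn1, Atf6 and Ern1.

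Within groups the members also moved together by array. Fibrillar replicate 1 had the highest value of its group for 10 of 10 luminal chaperones and for 23 of 33 members, or 69.7%, against 41.9% of all genes. Non-fibrillar replicate 1 had it for 8 of 10 and for 22 of 33, or 66.7%, against 38.4% of genes, and Matrigel replicate 1 for 6 of 10 and for 14 of 33, or 42.4%, against 42.5%. The median deviation of the luminal set from the group mean was 0.08 in fibrillar replicate 1 and 0.05 in non-fibrillar replicate 1, so the spread between arrays of a group was close to the collagen differences of Hspa5 and Hsp90b1. The source of this array effect was not tested.

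Other genes were followed in 7 lists, 6 of the ER and its stress response and 1 of chaperones outside the ER, with 159 of 168 genes measured. Their counts stand beside these shares of all genes and of bright genes. For non-fibrillar collagen against Matrigel 6.75% and 13.4% were higher and 7.07% and 13.6% lower. For fibrillar against non-fibrillar collagen 2.71% and 5.69% were higher and 3.69% and 7.66% lower. For fibrillar collagen against Matrigel 1.45% and 2.62% were higher and 2.37% and 4.4% lower. No list was tested as a set. Among 29 other ER folding enzymes, 5 were higher in non-fibrillar collagen than in Matrigel and 0 lower by limma (1 at unadjusted p under 0.05). These 5 of 29 lay near the share of bright genes. They included Fkbp11, a prolyl isomerase of secretory cells (0.61 ± 0.072, 1.52-fold, adjusted p = 6e-04), the Hsp70-like Hspa13 (0.27 ± 0.056, 1.20-fold) and the disulfide oxidase Ero1a (0.26 ± 0.063, 1.20-fold). The others were the prolyl isomerase Ppib (1.14-fold) and Prdx4 (1.15-fold). Without non-fibrillar replicate 1 or 3 the count was 2, and without Matrigel replicate 1, 2 or 3 it was 3. In the collagen comparison the peroxiredoxin Prdx4 (1.22-fold) and the prolyl isomerase Fkbp7 (1.23-fold) were lower in fibrillar collagen and 0 were higher (2 at unadjusted p). Prdx4 was lost in 5 of 6 and Fkbp7 in 6 of 6 refits without 1 array, and the list's count of 2 was 1 without fibrillar replicate 1 and 0 without any other 1 array. With a replicate block Fkbp7 missed the threshold (adjusted p = 0.0502) while the list's count of lower genes was 3. That count was 4 with all 9 arrays in the fit, 5 with a trended robust prior, 6 among genes with a mean of at least 6 and 10 among those of at least 7. Against Matrigel in fibrillar collagen 0 of this list passed (5 at unadjusted p, 1 of them higher).

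Of 29 genes of translocation and N-glycosylation, 10 were higher in non-fibrillar collagen than in Matrigel and 1 was lower. Spcs1, a signal peptidase subunit, was 1.27-fold higher (0.34 ± 0.055, adjusted p = 0.003), Srp14, a subunit of the signal recognition particle, was 1.20-fold higher, and Tram2, a translocation protein linked to collagen synthesis, was 1.36-fold lower (-0.44 ± 0.059, adjusted p = 0.00109). The 10 became 6 without non-fibrillar replicate 1 or 2 or Matrigel replicate 3 and 4 without Matrigel replicate 2. In the collagen comparison 7 of the 29 were lower in fibrillar collagen and 1, Tram2, was higher. Srp14 (-0.37 ± 0.044, 1.29-fold, adjusted p = 0.0107), Ssr4, the delta subunit of the complex that Ssr1 to Ssr3 belong to (-0.34 ± 0.043, 1.27-fold), and Sec11c, a signal peptidase catalytic subunit (-0.41 ± 0.070, 1.33-fold), led the 7. That count was 4, 2 and 0 without fibrillar replicate 1, 2 and 3 and 1, 0 and 3 without non-fibrillar replicate 1, 2 and 3, and Tram2 was lost without each of these arrays but non-fibrillar replicate 3. For fibrillar collagen against Matrigel 0 of 29 passed (7 at unadjusted p, 3 of them higher).

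In the list of 25 other ERAD genes, Selenos, a partner of the derlins, was higher in non-fibrillar collagen than in Matrigel by 1.24-fold and than in fibrillar collagen by 1.29-fold. Ngly1, which strips glycans from retrotranslocated proteins, was lower than in Matrigel by 1.14-fold in non-fibrillar and 1.18-fold in fibrillar collagen, calls lost in 7 and in 9 of the 9 refits without 1 array. The non-fibrillar call of Ngly1 was kept without fibrillar replicate 1 or 3. The collagen call of Selenos was lost in 5 of 6 refits, all but that without fibrillar replicate 1. Of 15 other sensors and regulators of the unfolded protein response, Crebrf (1.31-fold), the PERK gene Eif2ak3 (1.16-fold) and the ER membrane protein gene Wfs1 (1.14-fold) were lower in non-fibrillar collagen than in Matrigel, 0 were higher (3 at unadjusted p), and 0 passed in either comparison with fibrillar collagen (5 and 3 at unadjusted p). With a replicate block 1 of the 15 was lower in fibrillar than in non-fibrillar culture. Wfs1 was lost without non-fibrillar replicate 2 or 3 or Matrigel replicate 1 or 3, and 1 gene rather than 0 was higher without fibrillar replicate 2 or Matrigel replicate 1.

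Among 13 genes of PERK and ATF4 output, Asns, asparagine synthetase, was higher than in Matrigel in non-fibrillar collagen (0.39 ± 0.039, 1.31-fold, adjusted p = 0.00021) and in fibrillar collagen (0.35 ± 0.039, 1.27-fold, adjusted p = 0.00149). Nupr1 (1.43-fold) and Atf4 (1.13-fold) were higher in non-fibrillar collagen than in Matrigel, 0 were lower (0 at unadjusted p), and between the collagen forms 0 passed (3 at unadjusted p). Ddit3, which encodes CHOP, differed by 0.06 ± 0.060 between non-fibrillar collagen and Matrigel (adjusted p = 0.625). Atf4 was lost without non-fibrillar replicate 2 or 3 or Matrigel replicate 2 or 3. Without non-fibrillar replicate 1 or 2 or Matrigel replicate 2, 2 genes rather than 1 were higher in fibrillar collagen than in Matrigel.

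Of 26 genes of ER exit and retrieval, 5 were lower and 1 higher in fibrillar than in non-fibrillar collagen, led by the small GTPase Sar1b (1.22-fold), Tmed3 (1.31-fold) and Bet1 (1.28-fold), with Sec13 (1.17-fold) and the KDEL receptor Kdelr3 (1.37-fold) also lower and the coat subunit Sec24c (1.15-fold) higher. The 5 became 2, 1 and 0 without fibrillar replicate 1, 2 and 3 and 1, 0 and 1 without non-fibrillar replicate 1, 2 and 3, and the 1 became 0 in each. With a replicate block 4 were lower and 0 higher, so the call of Sec24c was lost, as it was after centring on array medians. Against Matrigel, where 13.4% of bright genes were higher, Sec23b (1.20-fold), Tmed3 (1.22-fold) and Kdelr3 (1.31-fold) were higher in non-fibrillar collagen and Sec24c (1.13-fold) was lower. Of these, 1 rather than 3 was higher without Matrigel replicate 2, and Sec24c was lost without non-fibrillar replicate 1 or 3 or Matrigel replicate 3. In fibrillar collagen 0 of the 26 differed from Matrigel (4 at unadjusted p).

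Of 22 cytosolic and mitochondrial chaperones, which lie outside the ER, 8 were higher and 2 lower in non-fibrillar collagen than in Matrigel, with the chaperonin subunits Cct7 (1.24-fold) and Cct4 (1.18-fold) and the Hsp90 gene Hsp90aa1 (1.20-fold) having the smallest p of those higher and the co-chaperones Bag3 (1.41-fold) and Hspb8 (1.14-fold) lower. The 8 became 5 without non-fibrillar replicate 1 or Matrigel replicate 1 and 4 without non-fibrillar replicate 2 or Matrigel replicate 3, and the 2 became 1 without any 1 array other than fibrillar replicate 1. In the collagen comparison Bag3 was higher in fibrillar collagen by 1.26-fold and Hsp90aa1 (1.15-fold) and Dnaja1 (1.23-fold) were lower, and each of these 3 calls was lost in all 6 refits without 1 array. Cct7 was higher in fibrillar collagen than in Matrigel by 1.13-fold, a call lost without any 1 fibrillar or Matrigel array.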

How the data were processed

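Total RNA of 9 samples was measured on Affymetrix arrays, 1 array a sample. The authors deposited log2 values per probe set. Per the submitters' processing notes these came from RMA in Affymetrix Power Tools, with no version stated there. RMA gives all arrays a like distribution, so a shift common to most genes would be masked. Whether all 9 arrays went through one RMA run is not stated, and separate runs would bear on each Matrigel comparison. Of 35512 probe sets, 21789 name 1 gene, and the probe set with the highest mean was used per gene, which left 19938 genes with no filter or rescaling. Differences were fitted with limma 3.58.1 in R 4.3.3 (lmFit, eBayes; two-sided), p was adjusted by Benjamini-Hochberg across the 19938 genes, and 0.05 was the threshold. The collagen forms were compared on their own 6 arrays and the Matrigel comparisons on all 9. Errors are limma standard errors unless marked SD.

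All members are named, with values per array for those called, and of each list up to 3 called genes per comparison with the smallest p and groups that do not overlap. Tram2, Sec13, Kdelr3 and Sec24c in the collagen comparison, Ppib, Prdx4, Kdelr3, Bag3 and Hspb8 against Matrigel, Ddit3, Adipoq and the keratin, fibroblast and adipocyte levels fall outside this rule and were chosen after their values were seen. Members and lists were chosen with earlier results of these data known.

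Deviations from group means correlated between the collagen arrays of the same number with r of 0.221, 0.143 and 0.242 over genes. Arrays of different numbers were not compared in this way, so these values alone do not establish that the numbers pair the arrays. Setting the collagen arrays against each other by number is a choice that no label gives. For collagen arrays set against the Matrigel array of the same number, r was 0.253, 0.103 and 0.0968 (fibrillar) and 0.125, 0.0449 and 0.135 (non-fibrillar). Scripts were tested on simulated data. The number of arrays limits the precision. Alternatives covered arrays in the fit, a replicate block, scaling, dim genes, probe sets, prior, array weights, threshold and each array left out. Promoters are RefSeq windows.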

Additional observations from a re-analysis of the deposited data

How the results depend on the processing

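The 23 calls on members were recomputed in 422 alternatives. Of these, 308 kept direction and side of the threshold, 114 kept direction without passing and 0 reversed. Many could not reverse, so the 0 says little about direction. The arrays in the fit, the block, the filter on dim genes, the prior and the threshold leave the difference itself unchanged. So does leaving out an array of the group that is not compared. Without 1 array the members called higher and lower numbered 0 and 0 to 1 in the collagen comparison, 1 to 3 lower for fibrillar collagen against Matrigel, and 3 to 12 higher for non-fibrillar collagen against Matrigel. Fewer arrays enter those refits. In the collagen comparison 2 members were higher with all 9 arrays in the fit and with genes of mean at least 6 or at least 7, and 0 were higher and 0 lower at adjusted p under 0.01. The replicate block left the collagen counts at 1 higher and 4 lower and changed no other call on members of that comparison. For fibrillar collagen against Matrigel, where no label pairs the arrays either, 1 member (Pdia6) was higher with the block. Pdia6 was also higher with genes of mean at least 6 or 7 and with a trended robust prior, and 0 members were lower at adjusted p under 0.01. For non-fibrillar collagen against Matrigel 5 members were lower with genes of mean at least 6 or 7, where fewer genes are tested, and 3 were higher at adjusted p under 0.01. With the block 12 were higher and 3 lower there, with Ssr3 in place of Pdia5. The cause of the other shifts was not tested.

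Over all genes the split of higher and lower calls moved with scaling: from 541 and 736 to 640 and 612 after quantile normalization and 421 and 968 after centring on medians in the collagen comparison, from 289 and 473 to 373 and 366 after quantile normalization for fibrillar collagen against Matrigel, and from 1345 and 1410 to 1841 and 1092 after centring for non-fibrillar collagen against Matrigel. Of all genes 6.4%, 3.82% and 13.8% were called in those comparisons, against 19.1%, 11% and 30.8% of genes with a mean of at least 6 and 25.7%, 13.9% and 37.7% of those of at least 7, with p adjusted over those genes. Without 1 array 0.752% to 2.85%, 1.77% to 3.6% and 9.1% to 13.2% were called, and 2.31% for fibrillar collagen against Matrigel on its own 6 arrays. At adjusted p under 0.01, 0.843%, 1.2% and 7.12% were called.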
